A study of Mus musculus with 12 samples.

Results

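The departure of the joint treatment with ascorbic acid (AA) and 2i from the sum of the 2 single treatments was examined in all 12 RNA sequencing libraries of the study. The libraries came from a mouse pre-iPSC line, a partially reprogrammed cell that has stalled before the pluripotent state. The study derived such clonal lines from fibroblasts with a Nanog-GFP reporter, using retroviruses that encode Oct4, Sox2, c-Myc and Klf4. Reads of these 4 genes can therefore come from the viral or the cellular copies. The cells were kept on irradiated feeders and were then treated for 48 h, off the feeders and in serum medium for embryonic stem cells, with the DMSO control, AA (50 μg per ml), 2i (a MEK inhibitor at 1 μM and a GSK inhibitor at 3 μM) or both together, AA+2i. Each of the 4 conditions had 3 libraries, lettered A, B and C. Of the 20325 genes in the files, 13400 had at least 10 counts in at least 3 libraries and were tested.

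AA is a cofactor of enzymes that remove methyl groups from histones and that oxidise methylated cytosine in DNA. In 2i, the MEK inhibitor blocks signalling through ERK, and the GSK inhibitor stabilises β-catenin and so raises Wnt targets. Embryonic stem cells kept in 2i hold a uniform naive state, in which factors such as Esrrb, Klf2, Tbx3 and Nanog are active.

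A sum of single effects depends on the scale, so 2 scales were used. On the log2 scale, the interaction is the log2 level with AA+2i, less that with AA, less that with 2i, plus that with DMSO. It is 0 where the fold changes of AA and of 2i multiply, and it was tested by edgeR on the expected counts with the letter as a block. On the linear scale the same difference was taken in TPM, the level per transcript length scaled to a common total per library, within each letter. This TPM departure is 0 where the changes in TPM add up, and it was tested by limma. The 2 tests read the same libraries and are given side by side, not as support for each other.

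Library depth, as the total of the expected counts, ranged from 16173322 to 54392719, and the DMSO and AA libraries of letter B were the deepest. The epithelial markers Cdh1 and Epcam were at 31.8 TPM or more in every library and Pou5f1 at 1865 TPM or more, while the fucosyltransferase Fut4, listed as a marker for SSEA1, was at 0.12 TPM or less. Of the other listed pre-iPSC markers, Sall4 was 22.2 to 49.5 TPM and Lin28a only 0.48 to 8.33 TPM. The summed level of 11 fibroblast markers lay between 14.8 and 31.2 TPM, and that of 5 endoderm markers was at most 0.7 TPM. GC content separated the letters: for transcripts over 60% GC, the median log2 interaction was 1.03 in letter A, -0.16 in letter B and -0.58 in letter C. The correlation of the gene-wise interaction between letters, over genes that share libraries and base composition, was 0.157 for A and B, -0.007 for A and C and 0.367 for B and C. It was 0.287, 0.141 and 0.342 after a GC curve had been taken from each library.

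**Figure D1:**
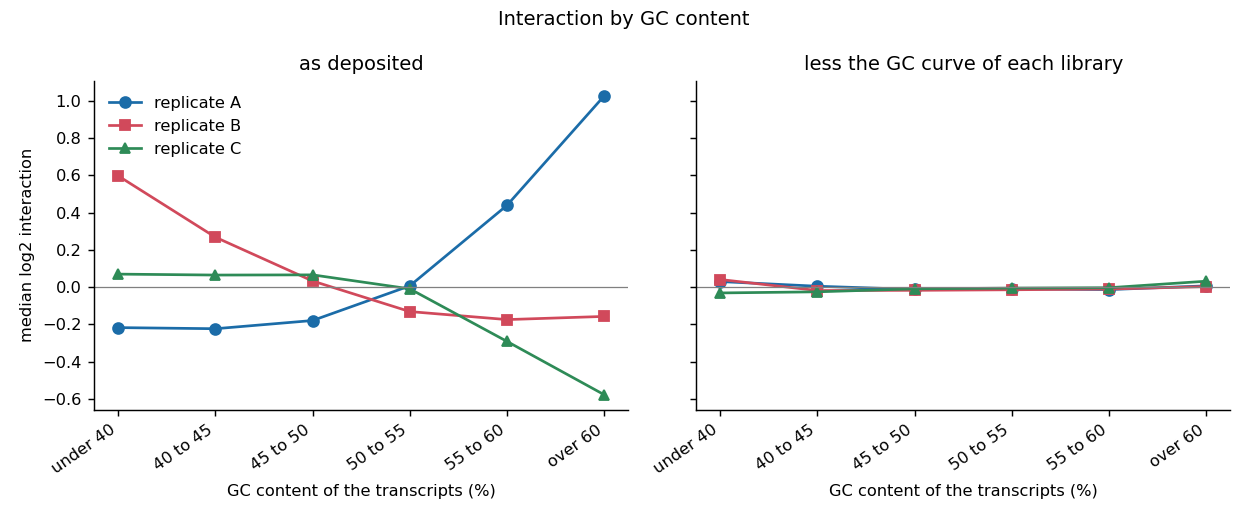
Median log2 interaction (vertical axis) of genes grouped by the GC content of their transcripts in % (horizontal axis), for each replicate letter, before (left) and after (right) the GC curve of each library was subtracted. Before the subtraction, letter A rose to 1.03 for transcripts over 60% GC while letter C fell to -0.58, and afterwards no median was beyond 0.041.

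On the log2 scale, 4 genes were above the sum at an adjusted p under 0.05 (edgeR quasi-likelihood test), which is 0.0299% of the genes tested, and 0 (0%) were below it. Without adjustment, 459 genes above (3.43%) and 180 below (1.34%) had p under 0.05. DESeq2 called 39 above and 10 below. Gm7609, LOC100504710 and Igf2 were among the 4 called genes, and they reached a positive interaction in different ways. With a GC curve as well as the block, 19 genes were above the sum (0.143%) and 3 below (0.0226%). Of those 22 genes, 2 were among the 4, and Gm7609 and LOC100504710 had no GC value. When any letter was left out, no gene was called in either direction.

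Igf2 encodes insulin-like growth factor 2, an imprinted fetal growth factor (mm9, chromosome 7, 149836673 to 149852721, minus strand). Its level was 5.82, 5.24 and 9.28 TPM with DMSO in letters A, B and C, and 1.84, 1.77 and 4.0 TPM with AA. It was 9.54, 7.29 and 24.5 TPM with 2i and 23.1, 18.8 and 59 TPM with AA+2i. In each letter AA lowered it, 2i raised it, and the joint treatment was the highest of the 4, although letter C with 2i lay above letters A and B with AA+2i. The sum of the log2 changes would have placed AA+2i at 5.16 TPM. The log2 interaction was 2.76 ± 0.30 (SE, edgeR adjusted p = 0.0178), with 3.12, 2.58 and 2.5 in the 3 letters. Without the letter block it did not pass (adjusted p = 1, within 6.07e-12 to 1 over all alternatives), and the letters are not shown to pair the libraries. By edgeR, AA lowered Igf2 without 2i (a log2 change of -1.45, adjusted p = 0.0071) and raised it with 2i present (1.32, adjusted p = 0.01001).

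LOC100504710, which the RefSeq accession table places among the Nat8 genes of N-acetyltransferase-like proteins, was 60.5, 112 and 94.6 TPM with DMSO. It was 31.8, 37.6 and 39.4 TPM with AA, 104, 108 and 122 TPM with 2i, and 211, 201 and 253 TPM with AA+2i. All 3 libraries with AA+2i lay above the other 9, and the log2 interaction was 2.25 ± 0.22 (edgeR adjusted p = 0.0113, 0.143 without the letter block, within 1.9e-13 to 1 over all alternatives). Cml3, of the same family, was 252, 344 and 342 TPM with DMSO and 648, 834 and 708 TPM with AA+2i, and its interaction was 1.10 (adjusted p = 0.179). Neither gene had a whole count in any library, since RSEM divides reads between copies, and their split is uncertain. The summed TPM of 6 genes of the family departed upward from the sum in each letter, by 374, 711 and 541 TPM.

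Gm7609 was above the sum in another way: each treatment alone lowered it, and the joint treatment did not lower it by both amounts. This gene model of chromosome 1 was 9.61, 12 and 7.93 TPM with DMSO, between 0.45 and 1.03 TPM with AA or 2i alone, and 1.26, 1.73 and 1.01 TPM with AA+2i. The 3 DMSO libraries lay above the other 9. The log2 sum placed AA+2i at 0.066 TPM, below the level of every library. The libraries with AA or 2i alone held only 6.92 to 40.13 expected counts of this gene. Its log2 interaction was 4.28 ± 0.37 (edgeR adjusted p = 0.00877, 0.00571 without the letter block, within 7.9e-13 to 0.929 over all alternatives). It too had no whole count, so its reads were divided with other genes. Igf2 had no whole count in any library either. Such counts were common, since 9855 of the 13400 genes tested lacked whole counts in many libraries.

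On the linear scale, 102 genes were above the sum (0.761% of those tested) and 61 below it (0.455%) at a limma adjusted p under 0.05. These counts moved with the scaling. With TPM multiplied by a median-of-ratios factor per library, 3 genes were above (Gm7609, Lyg1 and Raet1c) and 1 below (Piwil2). With that factor, each of the 163 genes kept its sign and an unadjusted limma p under 0.05. They had been chosen by their low p in the same libraries, so this adds no support. The 102 genes were of 2 kinds. The joint treatment gave the highest mean in 69 of them, and DMSO gave the highest in 32. Where the 2 single drops together exceed the DMSO level, the linear sum is negative. TPM cannot fall that low, so for such a gene a departure above the sum was fixed in advance. Gm7609 and Raet1c were such genes, with linear sums of -8.2 and -3.49 TPM. Of the 61 genes below the sum, 57 were highest with AA alone. On the log2 scale, 99 of the 102 were above 0, 67 of them with an unadjusted p under 0.05, and 52 of the 61 were below 0, 18 of them with such a p.

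**Figure D2:**
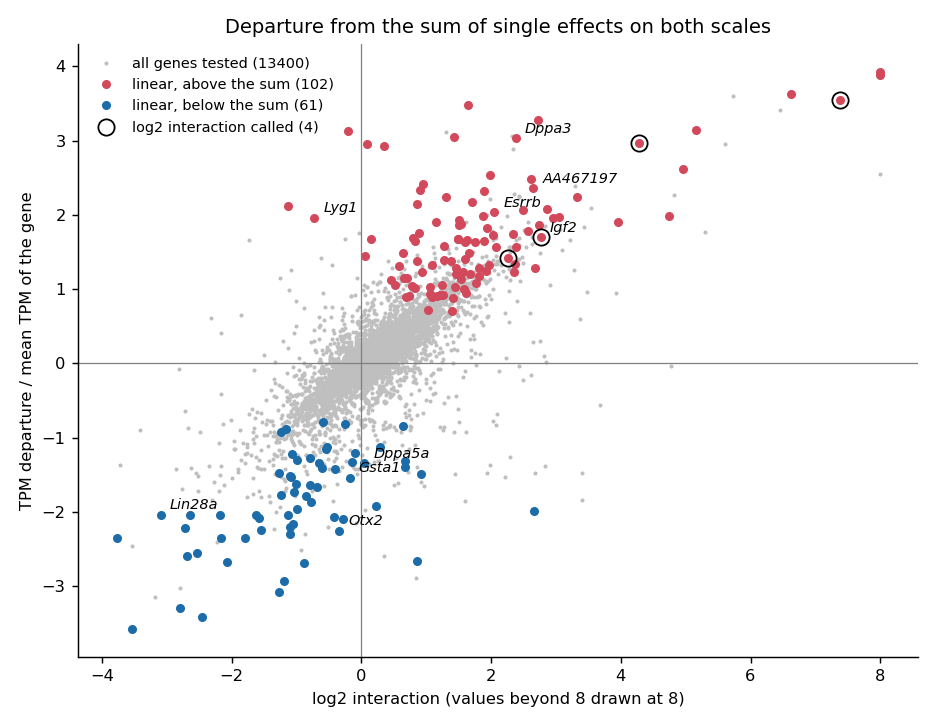
Each point is 1 of 13400 genes, with its fitted log2 interaction (horizontal axis) and its mean TPM departure divided by its mean TPM (vertical axis). The 102 genes above (red) and 61 below (blue) the linear sum are coloured and the 4 called on the log2 scale ringed, and Dppa5a lies near 0 on the horizontal axis though below the sum on the vertical.

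Among the genes highest with AA+2i were 4 naive pluripotency factors. Esrrb, an orphan nuclear receptor of the naive network, was 0.23, 0.15 and 0.31 TPM with DMSO, 0.37, 0.47 and 1.22 TPM with AA, and 0.18, 0.17 and 0.29 TPM with 2i. With AA+2i it reached 2.33, 2.53 and 2.73 TPM. The joint libraries lay above the other 9, and the means of the single treatments would have summed to 0.67 TPM on the linear and 0.64 TPM on the log2 scale. The departure was 1.86 ± 0.29 TPM (SD over 3 letters, limma adjusted p = 0.00698), and the log2 interaction of 2.05 did not pass edgeR's threshold (adjusted p = 0.43). Esrrb had at most 155 counts in a library.

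Dppa3, which guards maternal methylation in the early embryo, followed the same course from a lower start. It was at most 0.3 TPM with DMSO and 0.53 TPM with 2i, 0.8, 0.92 and 3.2 TPM with AA, and 9.18, 12.8 and 19.4 TPM with AA+2i. Its departure was 12 ± 3.8 TPM (limma adjusted p = 6.26e-05) and its log2 interaction 2.38 (edgeR adjusted p = 0.967). Nanog, at 2.93 to 7.14 TPM with DMSO and 16.8 to 19.6 TPM with AA, was 31.7 to 40.9 TPM with AA+2i. Its departure was 17.1 ± 3.7 TPM (adjusted p = 0.014), whereas its log2 interaction of 0.52 ± 0.45 (SE, adjusted p = 1) did not pass, at -0.13, 0.03 and 1.53 in letters A, B and C. The mean with AA+2i was 36.6 TPM, where the log2 sum gave 24.6 TPM. Klf2 departed by 32.3 TPM (adjusted p = 0.0158) and Tbx3 by 1.85 TPM (adjusted p = 0.0386), both above the sum. With TPM scaled by the median-of-ratios factor, the limma adjusted p was 0.056 for Esrrb and Nanog and 0.0811 for Dppa3. It was 0.241 for Klf2 and 0.316 for Tbx3. None of these genes passed the linear test without the letter block either. Of the 24 naive factors tested, 18 (75%) had a log2 interaction above 0, beside 55.4% of all genes, and none was called. On the linear scale 4 of them (Esrrb, Klf2, Nanog and Tbx3) were above and 2 (Tdgf1 and Zfp42) below, beside 0.761% and 0.455% of all genes.

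AA467197, a small mitochondrial protein, rose with the joint treatment (a log2 change of 3.19, edgeR adjusted p = 0.00012). It was 18.1, 14.0 and 17.9 TPM with DMSO, 18.8, 12.6 and 14.2 TPM with AA and 20.2, 19.6 and 29.97 TPM with 2i, and neither single treatment passed the test (edgeR adjusted p = 0.88 and 0.14). With AA+2i it was 92.5, 131 and 174 TPM, where the sums gave 21.8 TPM on the linear and 21.2 TPM on the log2 scale. The log2 interaction was 2.65 (adjusted p = 0.0875, and 0.00639 with the GC curve, within 7.74e-07 to 1 over all alternatives) and the departure 111 ± 37.9 TPM (limma adjusted p = 0.00123). The 3 letters gave 2.29, 2.61 and 2.96. Chdh, choline dehydrogenase, was at most 0.8 TPM in the 9 other libraries and 3.3, 3.63 and 3.45 TPM with AA+2i (interaction 1.87, adjusted p = 0.0916). Slc22a4, a transporter of ergothioneine, was 4.5, 5.0 and 5.55 TPM with AA+2i and at most 2.91 TPM elsewhere (interaction 2.38, adjusted p = 0.0875).

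Epithelial and trophoblast genes had mostly positive log2 interactions. Of 29 epithelial genes 25 had an interaction above 0, with a median of 0.53, beside 55.4% of all genes and a median of 0.04. The letter medians were 0.89, 0.45 and 0.22. Cldn4, a tight junction claudin, was 1.36, 11.2 and 9.91 TPM with DMSO and 89.9, 72.2 and 172 TPM with AA+2i (departure 83.9 TPM, limma adjusted p = 0.0106). Krt8, a simple epithelial keratin, departed by 18.5 TPM (adjusted p = 0.0321). Grhl2, a transcription factor of epithelia, was the 1 epithelial gene below the linear sum (departure -0.257 TPM, adjusted p = 0.0499), at means of 0.323 TPM with AA and 0.057 TPM with AA+2i. Cdh1, which encodes E-cadherin, rose with AA from 43.2 to 92.4 TPM and was 123 TPM with AA+2i, at an interaction of 0.09. Of 12 trophoblast genes 11 were above 0, with a median of 0.96 and letter medians of 1.18, 0.61 and 0.84. They included Gcm1, a factor of placental differentiation (2.0, unadjusted p = 0.0014, adjusted p = 0.36), Peg10 (0.74) and Hand1 (1.39). The summed level of 3 trophoblast markers was 0.2 to 1.8 TPM with DMSO and 3.4 to 20.9 TPM with AA+2i, most of it Krt18, while Cdx2 and Elf5 were at 0.8 TPM or less. Their part in the list was not tested. No gene of either list was called on the log2 scale. Of the trophoblast genes, Plac1, at a mean of 1.46 TPM with AA+2i, was above the linear sum.

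**Figure D3:**
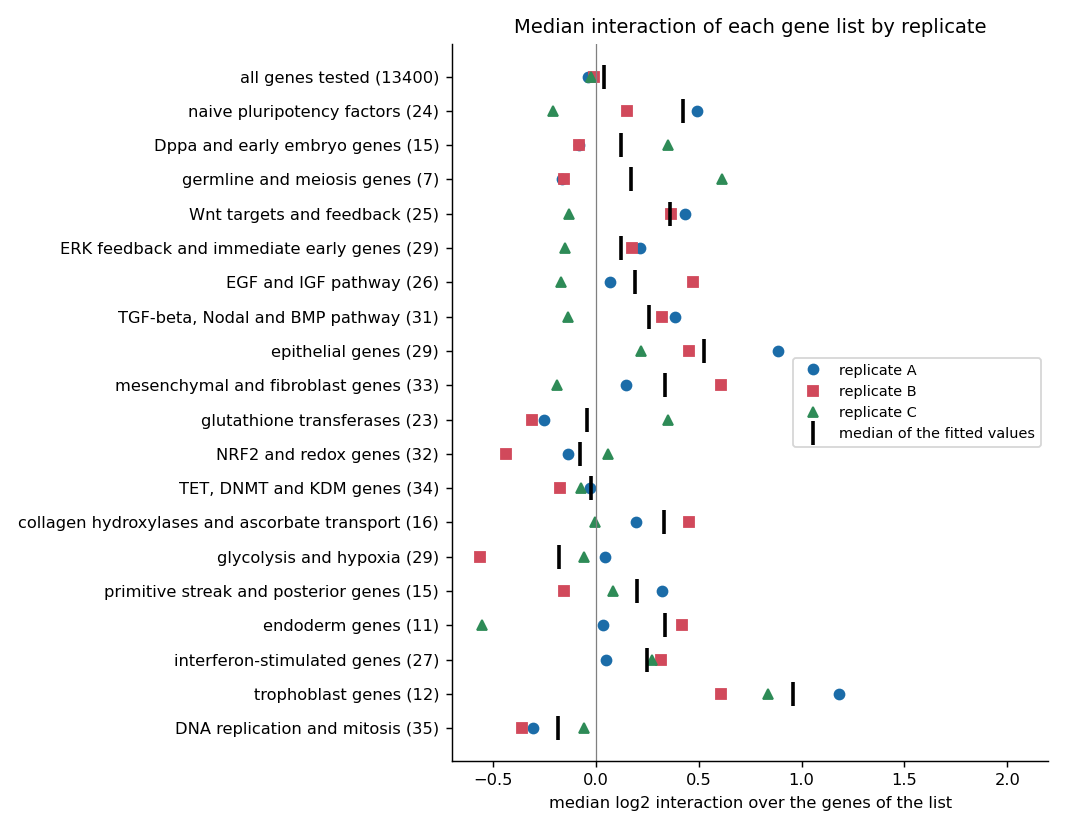
Median log2 interaction (horizontal axis) of each gene list, with the number of tested genes in brackets, for letters A, B and C (symbols) and for the fit over all libraries (bars). The trophoblast list had the highest fitted median, 0.96, and was above 0 in all 3 letters, and DNA replication and mitosis was below 0 in all 3.

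Genes lowered by both agents alone formed the other group above the sum. Oas1h, a gene of the oligoadenylate synthetase family that responds to interferon, was 9.9, 12.4 and 16.8 TPM with DMSO, 2.6 to 2.86 TPM with AA, 2.27 to 3.22 TPM with 2i and 2.92 to 5.81 TPM with AA+2i. The 3 DMSO libraries were above the rest and the joint treatment lay near the single ones. The interaction was 2.86 (edgeR adjusted p = 0.0596, and 0.00781 with the GC curve, within 7.74e-07 to 1 over all alternatives), and the departure 11.8 ± 3.1 TPM (limma adjusted p = 0.000137). The linear sum of Oas1h was -7.64 TPM, which no level can reach, so this departure was bound to be positive whatever the joint treatment did. The related list of 27 interferon-stimulated genes, of which Oas1h was not a member, had a median of 0.25 with 21 above 0 and none called.

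Bckdhb, a subunit of the branched-chain keto acid dehydrogenase, differed in that the joint treatment lay nearer to DMSO than either single treatment in each letter. In letter A it was 214 TPM in DMSO medium, 95 TPM after AA, 133 TPM after 2i and 149 TPM after the joint treatment. In letter B the values in this order were 172, 56.4, 89.6 and 170 TPM, and in letter C 107, 51.1, 66.4 and 91.6 TPM. AA lowered it by 1.26 and 2i by 0.59 on the log2 scale, and AA+2i differed from DMSO by -0.04 (adjusted p = 0.88). Its interaction was 1.81 (adjusted p = 0.0596, and 0.00329 with the GC curve, within 7.74e-07 to 1 over all alternatives). Lypd6b was 15.2 to 24.1 TPM with DMSO, 11.01 to 16.1 TPM with AA, 6.52 to 7.92 TPM with 2i and 16.3 to 19.9 TPM with AA+2i (interaction 1.76, adjusted p = 0.139). It fell with 2i (adjusted p = 0.00474), while its change of -0.46 with AA did not pass (adjusted p = 0.276).

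Genes of the growth factor and ERK pathways varied in their course. Igfbp3, an IGF binding protein, was 62.3, 100.3 and 84.6 TPM with DMSO, 44.7 to 57.8 TPM with AA, 15.1 to 17.4 TPM with 2i and 20.7 to 24.4 TPM with AA+2i. The change with AA was -0.69 on the log2 scale without 2i (edgeR adjusted p = 0.034) and 0.47 with 2i present (adjusted p = 0.136), and the interaction was 1.16 (adjusted p = 0.189, and 0.0345 with the GC curve, within 0.0032 to 1 over all alternatives). Of 26 genes of the EGF and IGF pathway 20 were above 0, beside 55.4% of all genes. Igf2 was the 1 called on the log2 scale, beside 0.0299% of all genes. Egfr itself fell with 2i by 1.47 and had an interaction of 0.19 (adjusted p = 1). Egr1, an immediate early gene of ERK, fell by 5.63 with 2i, and with AA+2i it was 0.35, 12.6 and 54.8 TPM, so that the 3 joint libraries differed widely. Dusp6, the feedback phosphatase of ERK, was 56.9 to 72.5 TPM with DMSO, 6.68 to 7.14 TPM with 2i and 6.19 to 6.63 TPM with AA+2i, and its interaction was -0.15 (adjusted p = 1). The list of 29 ERK genes had a median of 0.12 and 3 members above the linear sum, Egr1, Ier2 and Phlda1, beside 0.761% of all genes. The linear sum of Egr1 was -39.3 TPM, so Egr1 could only lie above it. Ier2, an immediate early gene, passed the test with neither single treatment (edgeR adjusted p = 0.853 with AA and 0.835 with 2i), at means of 32.6 TPM with DMSO, 33.0 TPM with AA, 43.2 TPM with 2i and 94.5 TPM with AA+2i. Its letters differed widely too, at a departure of 50.85 ± 28.6 TPM (SD over 3 letters). The log2 interaction was 1.575 (edgeR unadjusted p = 0.135), with an SD of 1.452 over the letters.

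Below the linear sum stood mostly genes that were highest with AA and, in 49 of the 61, lowest with 2i, among them Dppa genes of the early embryo. Dppa5a, an RNA binding protein of the inner cell mass, was 45.1, 35.6 and 78.8 TPM with DMSO and 1419, 1232 and 1665 TPM with AA. It was 26.2, 19.08 and 25 TPM with 2i and 511, 763 and 747 TPM with AA+2i. All AA+2i libraries thus lay between the AA libraries and the rest, and the departure was -735 ± 245 TPM (limma adjusted p = 0.000137). The log2 interaction was 0.05 ± 0.33 (SE, edgeR adjusted p = 1), at -0.53, -0.08 and 0.61 in letters A, B and C. By edgeR, 2i changed Dppa5a by -0.95 on the log2 scale without AA and by -0.90 with it. Dppa2 (departure -10.7 TPM, adjusted p = 0.000204), Dppa4 (-3.43 TPM, 0.0151), Tex19.1 (-10.6 TPM, 0.000556) and Ooep (-56.4 TPM, 0.00129) were below the linear sum as well, at log2 interactions between -0.85 and 0.29. Of 15 genes of this list, 5 were below and 2 above, Dppa3 and Calcoco2, beside 0.455% and 0.761% of all genes. Gdf3, by contrast, was 29.9, 45.1 and 58.3 TPM with AA and 38.3, 40.4 and 44.6 TPM with AA+2i, where the linear sum gave 43.9 TPM and the log2 sum 38.5 TPM.

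Gsta1, a glutathione transferase, was 226, 179 and 280 TPM with AA and 50.7, 63 and 46.7 TPM with AA+2i, beside 43.2 to 70.5 TPM with DMSO. AA raised it by 2.09 and 2i lowered it by 1.71 on the log2 scale, and the log2 interaction was -0.18. Its sum with Gsta2, with which it shares reads, departed by -141, -87.6 and -176 TPM in the 3 letters. Otx2, a homeobox factor of the primed state, was 58.6, 55.8 and 91.9 TPM with AA and 12.4, 14.6 and 15.1 TPM with AA+2i (departure -50.6 TPM, limma adjusted p = 0.000211). Piwil2, which acts with piRNAs in the germ line, was 13.8, 10.8 and 9.05 TPM with AA and at most 0.92 TPM with AA+2i. It had a departure of -9.17 TPM (adjusted p = 2.39e-05) that also passed with scaled TPM (0.0485, the highest over all alternatives) and a log2 interaction of -0.88 (unadjusted p = 0.0284).

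Lin28a differed from these genes because it was also far below the log2 sum. This RNA binding protein, which blocks let-7 maturation, was 1.47, 0.57 and 2.44 TPM with DMSO, 3.73, 2.99 and 8.33 TPM with AA and 1.4, 1.23 and 1.93 TPM with 2i. With AA+2i it was 0.59, 0.48 and 0.83 TPM, the lowest condition, where the sums gave 5.04 and 5.11 TPM. The interaction was -3.10 ± 0.46 (edgeR adjusted p = 0.0875, and 0.024 with the GC curve, within 3.89e-06 to 1 over all alternatives), at -2.36, -3.87 and -2.83 in the 3 letters. Tnn and 4921517D22Rik were also lowest with AA+2i, at most 0.23 and 0.1 TPM, from at most 14 and 4.01 counts. Neither passed in the main edgeR fit (adjusted p = 0.139 and 0.181). With the GC curve, the adjusted p were 0.0275 and 0.0281 (0.00118 to 1 and 0.00826 to 1 over all alternatives). Sgk1, a kinase of the AGC group, was raised by AA by 2.59 and by 2i by 1.36, and by AA+2i by 2.33 (interaction -1.62, adjusted p = 0.201). Inpp5d, Dusp27 and Vcan, also raised by AA, were below their log2 sums at unadjusted p of 0.00277, 0.00246 and 0.00071, and none passed adjustment.

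**Figure D4:**
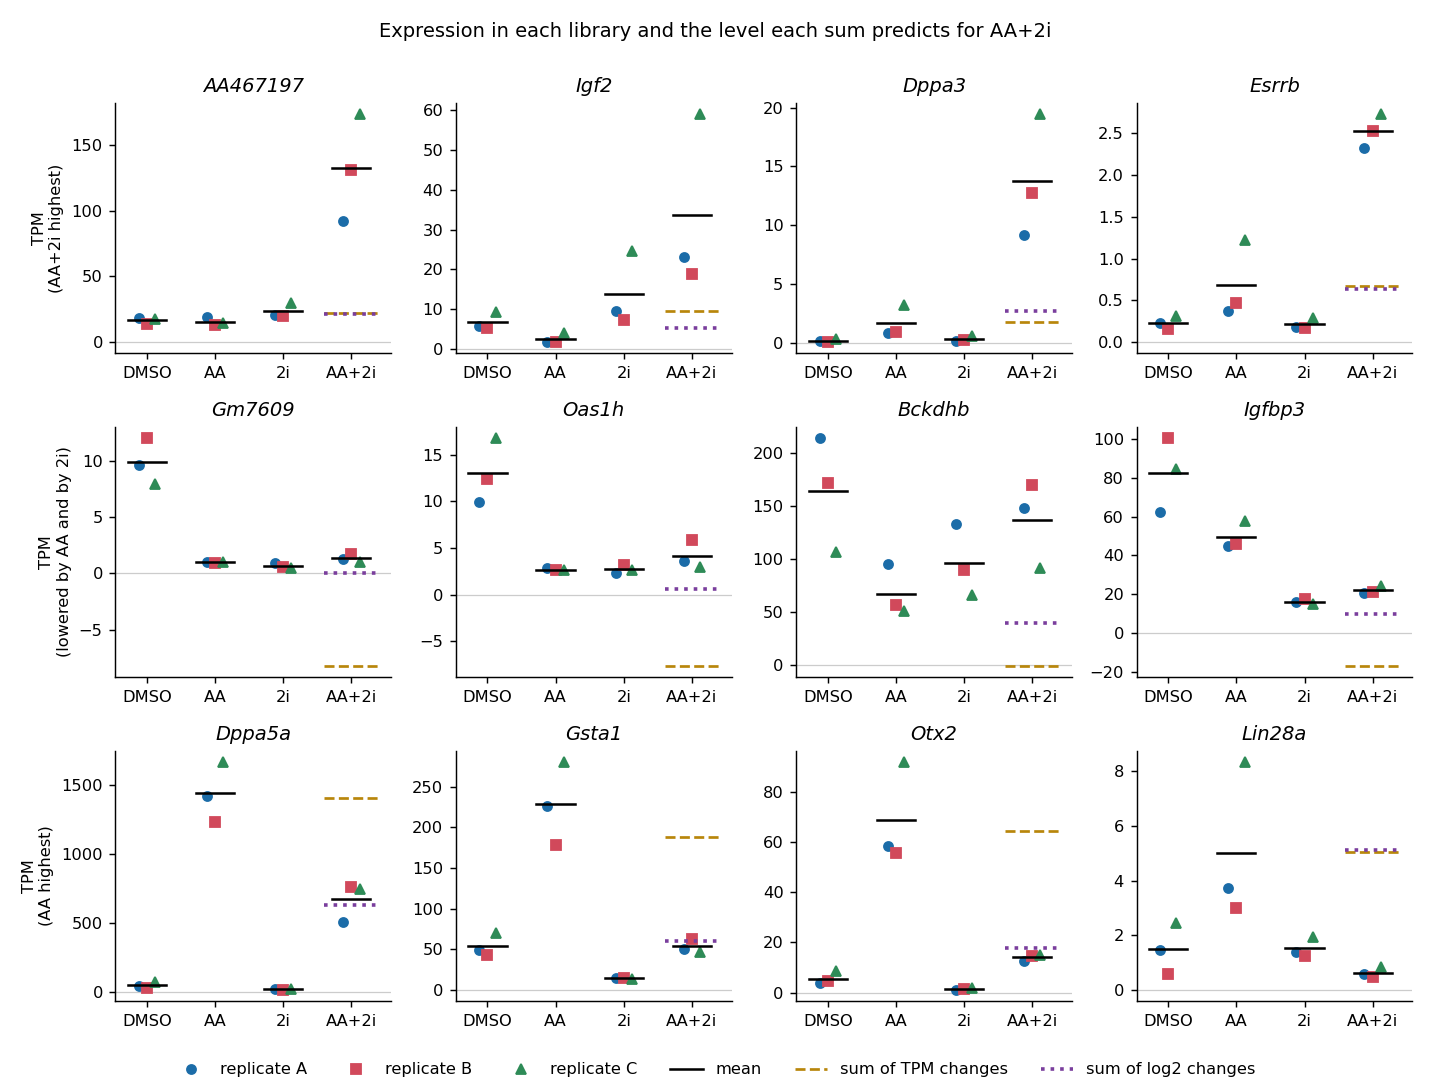
TPM (vertical axis, linear) of 12 genes in the DMSO, AA, 2i and AA+2i libraries (horizontal axis), with replicate letters as symbols, condition means as bars, and the level of AA+2i given by the sum of the TPM changes (dashed) or of the log2 changes (dotted). In the top row AA+2i is above both sums, in the middle row the dashed line falls below 0 because AA and 2i each lowered the gene, and in the bottom row AA+2i is below the dashed sum.

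Wnt targets had 17 of 25 genes above 0 and a median of 0.36, beside 55.4% and 0.04 for all genes. Axin2, the feedback scaffold of Wnt signalling, was 3.5, 3.97 and 12.8 TPM with 2i and 7.96, 4.95 and 11.1 TPM with AA+2i, at an interaction of -0.30. Lef1 was below the sum (-1.41, unadjusted p = 0.00585) and Notum, a Wnt deacylase, above it on the linear scale (departure 70.9 TPM, limma adjusted p = 0.0105). The 34 genes of the TET, DNMT and KDM list had a median of -0.03. Tet1 fell with 2i by 1.54 and had an interaction of 0.11, Kdm3b had 0.13, and Tet2 had 0.67 (adjusted p = 0.57). Of 35 DNA replication and mitosis genes, 31 were below 0 with a median of -0.18, beside 5975 of all 13400 genes below 0, and none was called. Glycolysis and hypoxia (20 of 29 below 0) had a median of -0.18, with letter medians of 0.04, -0.56 and -0.06.

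For the lists that follow, the share of all genes above 0 was 55.4%. The mesenchymal and fibroblast list had 26 of 33 genes above 0 and a median of 0.34. Its 1 member below the linear sum was Loxl1, beside 0.455% of all genes. Collagen hydroxylases and ascorbate transporters, which include enzymes that use AA as cofactor, had 15 of 16 above 0, a median of 0.33 and no gene called on either scale. The letter medians of this list were 0.193, 0.455 and -0.005. The TGF-β, Nodal and BMP list had 21 of 31 above 0. Id4 and Tgfb2 were above the linear sum and Tgfbi below it, beside 0.761% and 0.455% of all genes. Tgfbi, a matrix protein induced by TGF-β, was 20.7, 21.6 and 37.5 TPM with AA and 4.85, 4.56 and 3.05 TPM with AA+2i. Id4, an inhibitor of helix-loop-helix factors, was 5.86 to 7.68 TPM with DMSO and 2.09 to 2.43 TPM with AA+2i. This was below DMSO but above the linear sum, which was negative. The linear sum of Tgfb2 was negative too, at means of 9.35 TPM with DMSO, 1.98 TPM with AA and 3.29 TPM with 2i. Neither Id4 nor Tgfb2 could therefore lie below its linear sum. Primitive streak genes had 11 of 15 above 0, endoderm genes 8 of 11 and germline genes 4 of 7. Among the germline genes Piwil2 was below the linear sum. Glutathione transferases (9 of 23 above 0, median -0.04) and NRF2 and redox genes (14 of 32, median -0.08) lay near 0, as did all genes. The medians of 10 of the 19 lists changed sign when a letter was left out, 8 of them without letter B. Those of the naive, epithelial, trophoblast and Wnt lists did not. In letters A, B and C, however, the naive medians were 0.492, 0.149 and -0.207. The Wnt medians were 0.435, 0.367 and -0.131, so letter C was below 0 in both lists.

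Some genes were called on the linear scale from values that do not stand alone. Raet1c had the lowest p (limma adjusted p = 9.85e-07), but its reads lay at 0, 2.42 and 8.25 TPM with DMSO and at 5.88, 4.83 and 0 TPM with AA+2i. It belongs to 5 closely related Raet1 genes, whose summed TPM departed by -28.7, 52.8 and 19.6 TPM in the letters. Lyg1, a lysozyme-like protein, was above the linear sum (departure 19.9 ± 2.4 TPM, adjusted p = 5.82e-05). It was 7.58, 8.71 and 11.1 TPM with 2i and 25.6, 31.7 and 32.9 TPM with AA+2i, and its log2 interaction was -0.73 (edgeR adjusted p = 1), with 0.36, -0.19 and 0.03 in the letters and 0.81 by limma on log2(TPM + 1). In total 12 genes, Dppa5a, Ooep and Lyg1 among them, had fitted values of opposite sign on the 2 scales. The log2 sign was mostly unresolved, since 1 of the 12, Adam12, had an unadjusted edgeR p under 0.05 and the adjusted p were 0.943 to 1.

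Promoters were compared for the genes named by the log2 interaction, using the RefSeq sequences of 250 bases before to 50 after each start. A promoter was available for 10 of 13 genes above the sum and 9 of 12 below, and a gene with several starts was counted more than once. Of 18 promoters of genes above the sum, 3 (16.7%) held the TCF/LEF core CTTTGA on either strand, as did 4 of 14 (28.6%) of genes below and 11.8% of the promoters of all genes tested. The AP-1 core TGANTCA was in 2 of 18, 0 of 14 and 5.3%. The median number of CG was 5, 6.5 and 20. The upstream 250 bases of AA467197 and Lin28a are shown for 1 gene on each side, chosen after their values were seen, from GRCm38.p6 (AA467197 chr2:122637637-122637886, plus strand, and Lin28a chr4:134018817-134019066, minus strand), with CG in capitals.
AA467197: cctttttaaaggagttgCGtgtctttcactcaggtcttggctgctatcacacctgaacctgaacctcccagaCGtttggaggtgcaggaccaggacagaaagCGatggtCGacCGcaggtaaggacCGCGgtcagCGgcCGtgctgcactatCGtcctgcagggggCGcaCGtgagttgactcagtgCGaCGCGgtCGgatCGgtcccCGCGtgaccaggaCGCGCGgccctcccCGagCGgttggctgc
Lin28a: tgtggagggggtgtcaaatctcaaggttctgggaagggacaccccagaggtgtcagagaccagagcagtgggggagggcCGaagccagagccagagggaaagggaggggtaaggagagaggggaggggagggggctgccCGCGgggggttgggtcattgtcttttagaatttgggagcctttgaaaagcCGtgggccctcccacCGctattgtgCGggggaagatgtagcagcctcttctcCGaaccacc
AA467197 has 24 CG in this stretch and an AP-1 core, and Lin28a has 7 CG and a TCF/LEF core. A match is a description of letters and not of binding.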

How the data were processed

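RNA was sequenced from pre-iPSCs on day 2 with DMSO, AA, 2i or AA+2i. Per the labels and methods of the study, reads were trimmed, filtered, aligned to annotated genes of mm9 with Bowtie (so named in the submitters' processing notes, Bowtie2 in the methods) and quantified with RSEM 1.2.4. The authors deposited RSEM expected counts, which need not be whole, with TPM and FPKM computed from them by length and library total. A TPM value that could not be read as a number (AA, letter C) was replaced by 40.57, derived from its FPKM. No column was left out for want of a sample.

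Expected counts were rounded and fitted with edgeR 4.0.16 (R 4.3.3), RLE factors, a mean for each of the 4 conditions and the letter as block, which leaves 6 residual degrees of freedom. Standard errors are the log2 value divided by the square root of F. The 3 departures of a gene in TPM, 1 a letter, were divided by its mean TPM and tested with limma 3.58.1 (trend, robust). Benjamini-Hochberg adjusted p under 0.05 was called. The labels do not say that a letter marks a shared culture or day, so the letter may be a number only. Over 13400 genes, the deviations of same-letter libraries from their condition means correlated at 0.401 on average over 18 pairs (-0.588 to 0.894), and those of other letters at -0.196 over 36 pairs. The labels call the libraries replicates and the study biological replicates. Alternatives were TMM factors, DESeq2 1.42.0, limma on log2(TPM + 1), 2 count filters, no block, loess GC curves (span 0.4, for the 13286 genes with a GC value), other TPM scalings and leaving out each letter. GC content came from mm9 transcripts, and genes were matched by symbol (20022), accession (99) or synonym (19), with 185 unmatched.

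On simulated counts with 200 changed genes (3 draws over 13400 genes), edgeR found 4.3% of log2 interactions of 1 and 55.7% of those of 2, with 2.7% of its calls false. The linear test found 9% of upward departures of 2 and 58.7% of 8 times the mean of the 3 other conditions, with 1% false. For this test, genes were changed and false calls counted only where the linear sum was clearly positive. The 1% therefore does not cover genes whose linear sum was negative. The genes named were those called, those of lowest p with 1 sign in all letters and at least 1 TPM in a condition, the lowest linear p, genes named in the study, and list members. The comparison, members and lists were chosen with earlier results of these data known. Columns of fold changes or p-values were not used. A gene that met these rules is not reported here.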

Additional observations from a re-analysis of the deposited data

Results flagged for a closer look

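For 3 genes described in the report, the effect of AA differed with and without 2i by the edgeR test of that difference. The log2 interactions were 4.28 for Gm7609, 2.25 for LOC100504710 and 2.76 for Igf2. On the linear TPM scale the same difference passed the limma test for 102 genes above the sum and 61 below it. For genes with a negative linear sum, a departure above it was fixed in advance. For Gm7609 and LOC100504710 the reads were divided between near copies. Igf2 also had no whole count in any library, and its 3 letters gave 3.12, 2.58 and 2.5.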

How the results depend on the processing

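The log2 counts (4 above and 0 below the sum) were 39 and 10 with DESeq2, 19 and 8 with limma on log2(TPM + 1), and 19 and 3 in the replicate block with the GC curve. They were 2 and 0 with at least 10 counts in every library, with no replicate block, with the GC curve and no replicate block, and without DMSO replicate A, an alternative chosen after seeing the data. They ranged from 0 to 0 when a letter was left out. The linear counts (102 above and 61 below) were 3 and 1 with TPM scaled by a median-of-ratios factor, 10 and 5 with no replicate block, 33 and 22 with TPM divided by the GC curve, and 71 and 40 without robust variances, the last 2 chosen after seeing the data. They ranged from 145 to 212 above and from 53 to 135 below when a letter was left out. The letters were not shown to pair the libraries: 11 of 12 libraries correlated best with their own letter, as a hint from the data. The calls lost with no replicate block were those of Igf2 and LOC100504710, and such losses are not read as weaker effects. Of 832 values of single genes and list medians under alternatives, 762 were counted as unchanged, 46 passed the threshold newly and 17 no longer passed it. A further 7 moved by more than the spread between letters, and 0 reversed among called values. An uncalled gene that changed sign, or a list median that moved, by less than this spread counted as unchanged. Sign changes are therefore among the 762. The Lyg1 interaction was 0.81 and the Axin2 interaction 0.22 with limma on log2(TPM + 1), opposite in sign to the edgeR values. The cause of these differences was not tested. In simulated counts at the depth and number of these libraries, 4.3% of log2 interactions of 1 were found.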
